A study of Rattus norvegicus with 7 samples.

Results

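Dual specificity phosphatases of the MAP kinases (DUSP genes) and Sprouty genes encode the negative feedback of this cascade, and 9 of them were followed in cells of the rat spinal cord that were cultured and stretched in cycles: Dusp1, Dusp4, Dusp5, Dusp6, Dusp10, Dusp14, Spry1, Spry2 and Spry4. All probe sets to which the platform annotation assigns exactly 1 of these symbols were taken, which gave 12 probe sets of 20826 with a single symbol, and 9 genes of 14217. The genes were chosen with their signals on these arrays already known, so their values are given as a description and no test of them was made. Cells of the spinal cord of Sprague-Dawley rat embryos of post-coital day 15, without dorsal root ganglia and meninges, were grown on flexible membranes, and all cultures were loaded with the same cyclic tensile stress except those taken at 0 hours. Total RNA of 5 animals was pooled at 0 hours and at 6 later times up to 72 hours, and each pool was hybridised to 1 array, which gave 7 arrays with no replicate. No array of an unloaded culture at a later time was analysed here, so that time under stress and time in culture cannot be told apart.

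Background on these genes is as follows. A MAP kinase is active only while both a threonine and a tyrosine of its activation loop are phosphorylated, and a dual specificity phosphatase removes both phosphates. Dusp1 and Dusp4 encode nuclear enzymes that are made in response to growth factors and stress and act on ERK, JNK and p38, while the nuclear enzyme of Dusp5 and the cytoplasmic enzyme of Dusp6 act mainly on ERK. The product of Dusp10 acts on p38 and JNK, and that of Dusp14 is a small enzyme without the N-terminal kinase-binding domain of the others. Sprouty proteins, first described in Drosophila, restrain the signal from receptor tyrosine kinases to RAS and ERK. Several of these genes are transcribed in response to the cascade that they restrain, and the mRNA is often used as a readout of ERK activity.

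The sequences before the starts of 4 of these genes are shown because their mRNAs followed different courses: those of Dusp1 and Spry4 were highest at 72 hours, that of Dusp5 at 6 hours, and that of Dusp6 was lowest at 48 and 72 hours. Each is the 250 bases before the annotated start, 5′ to 3′ on the strand of the gene, from RefSeq on the rat assembly GRCr8, with matches to the motifs named in the next paragraph in capitals. The windows lie at chr10:17184603-17184852 (strand +) for Dusp1, chr1:262543524-262543773 (strand +) for Dusp5, chr7:35979354-35979603 (strand +) for Dusp6 and chr18:30702547-30702796 (strand -) for Spry4.
Dusp1: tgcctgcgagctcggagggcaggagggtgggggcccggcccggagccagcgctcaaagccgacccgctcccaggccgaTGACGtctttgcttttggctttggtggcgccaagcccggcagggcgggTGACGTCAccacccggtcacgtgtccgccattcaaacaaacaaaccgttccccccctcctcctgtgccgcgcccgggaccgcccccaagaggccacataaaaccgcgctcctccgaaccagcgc
Dusp5: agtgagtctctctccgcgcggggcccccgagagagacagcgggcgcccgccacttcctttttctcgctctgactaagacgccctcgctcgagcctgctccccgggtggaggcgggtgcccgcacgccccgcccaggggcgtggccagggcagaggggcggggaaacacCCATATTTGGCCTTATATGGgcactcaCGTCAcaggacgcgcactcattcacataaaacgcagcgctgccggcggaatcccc
Dusp6: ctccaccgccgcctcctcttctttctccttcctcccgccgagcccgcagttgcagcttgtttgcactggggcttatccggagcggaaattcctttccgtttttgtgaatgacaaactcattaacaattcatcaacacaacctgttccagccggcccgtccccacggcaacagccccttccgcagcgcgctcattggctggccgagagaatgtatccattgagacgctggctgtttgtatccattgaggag
Spry4: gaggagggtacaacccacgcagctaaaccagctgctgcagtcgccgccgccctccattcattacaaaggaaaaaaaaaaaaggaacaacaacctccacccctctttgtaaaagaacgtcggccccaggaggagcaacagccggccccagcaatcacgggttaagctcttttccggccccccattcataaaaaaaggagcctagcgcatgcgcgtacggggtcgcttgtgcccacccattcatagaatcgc

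Searched on both strands were the cAMP response element (CRE, TGACGTCA), its short form (TGACG), the AP-1 site (TGANTCA), an ETS site (CCGGAAGT) the CArG box bound by serum response factor and a TATA-like motif (TATAAA, not put in capitals), with overlaps between motifs counted for each of them. Dusp1 held a full CRE 124 to 117 bases before the start, which also holds the short form TGACG on each strand, and a further TGACG 172 to 168 bases before it. Dusp5 held a pair of CArG boxes that lie side by side, 82 to 73 and 72 to 63 bases before the start, and a short CRE. Of all 33469 windows of the same length, 1.59% held the full CRE, 18.2% its short form, 6.34% the AP-1 site, 3.10% the ETS site, 1.5% a CArG box and 12.9% the TATA-like motif. The letters searched were not in the windows of Dusp6, Dusp10, Spry1 and Spry4. 1 of 3 windows of Dusp14 held an AP-1 site and a short CRE, another held the TATA-like motif 29 to 24 bases before the start, and 1 of 2 windows of Spry2 held a short CRE. Windows were at hand for 8 of the 9 genes, all but Dusp4. A match is a description of the letters and does not show that a factor was bound in these cells.

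**Figure D1:**
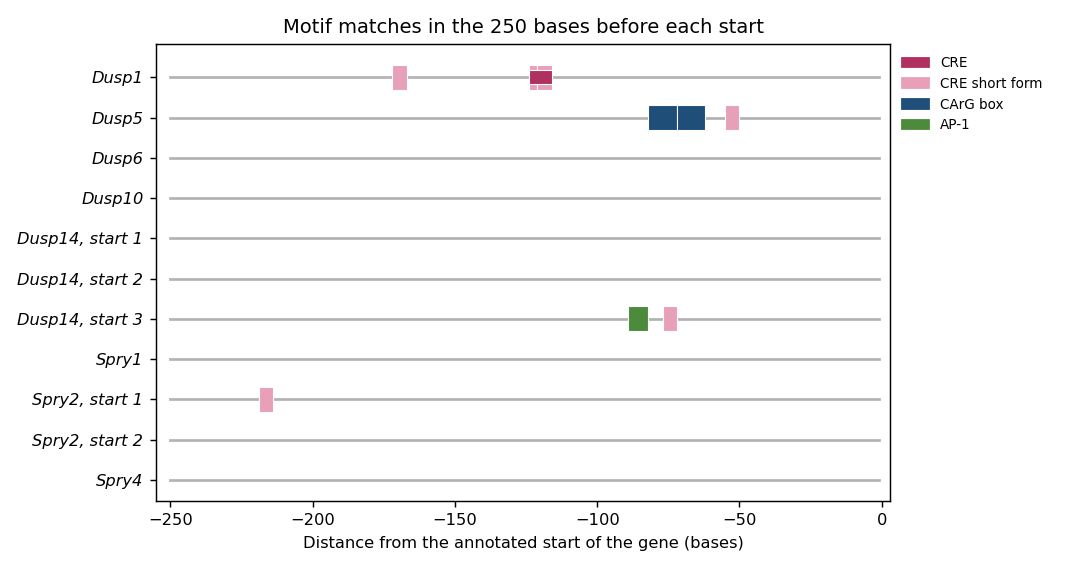
Matches to the searched motifs other than the TATA-like one (coloured boxes) along the 250 bases before each annotated start (horizontal axis, distance in bases, with the start at the right), 1 line a window. The full CRE lies in Dusp1, the neighbouring CArG boxes in Dusp5, and the lines of Dusp6 and Spry4 are empty.

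The values are signals of the Affymetrix MAS5.0 software, linear and scaled by the authors to a common mean on each array. On the 7 arrays the median signal was 145 to 162, and the 3′ probe set of the Gapdh control was at 1.01 to 1.17 times its 0 hour signal at the later times. Signals below 100 were treated as near the floor, and 42.5 to 44.3% of the probe sets of an array were below it. For the beta-actin control, the signal at the 3′ end divided by that at the 5′ end was 1.82 at 0, 2.20 at 24, 2.54 at 48 and 2.62 at 72 hours. Marker genes of cell types were checked as sums of signals. Neuronal markers were detected (10 of 10 measured, none below 100 on all arrays), and their sum was 5729 at 72 hours against 18564 at 0 hours, with 10 of 10 lower. Markers of astrocytes, microglia, fibroblasts, the oligodendrocyte lineage and skeletal muscle were detected as well, while 3 of 4 measured endothelial markers stayed below 100. In such bulk RNA, fewer cells of a type and less RNA per cell cannot be told apart.

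Among the 12 probe sets, those of Dusp1 and Spry4 were higher, those of Dusp6 were lower and that of Dusp5 was briefly higher, by the study's rule of size for a change, which asks for a ratio to 0 hours of 2 or more (or of 0.5 or less) together with a signal difference of 200 or more. None was higher or lower at 2 hours, where 0.0387% of all 31042 probe sets were higher and 0.47% lower. At 6 hours 1 of 12 was higher, where 0.351% of all were, and none was lower (1.22% of all). None passed at 12 hours (0.419% of all higher, 1.71% lower) or at 24 hours (0.496% higher, 1.31% lower). At 48 hours 2 were higher (1.98% of all) and 3 lower (3.05% of all). At 72 hours 3 were higher (2.6% of all), namely both of Dusp1 and that of Spry4, and 3 lower (3.54% of all), all of Dusp6. These shares of the array are printed for scale only, since the genes were picked on these arrays. The median ratio of the 12 was 1.16 at 6 hours and 0.830 at 72 hours, where that of the 17709 probe sets whose signal averaged 100 or more was 0.975 and 0.997. Of those 17709, those between the percentiles 5 and 95 had ratios of 0.398 to 2.18 at 72 hours.

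**Figure D2:**
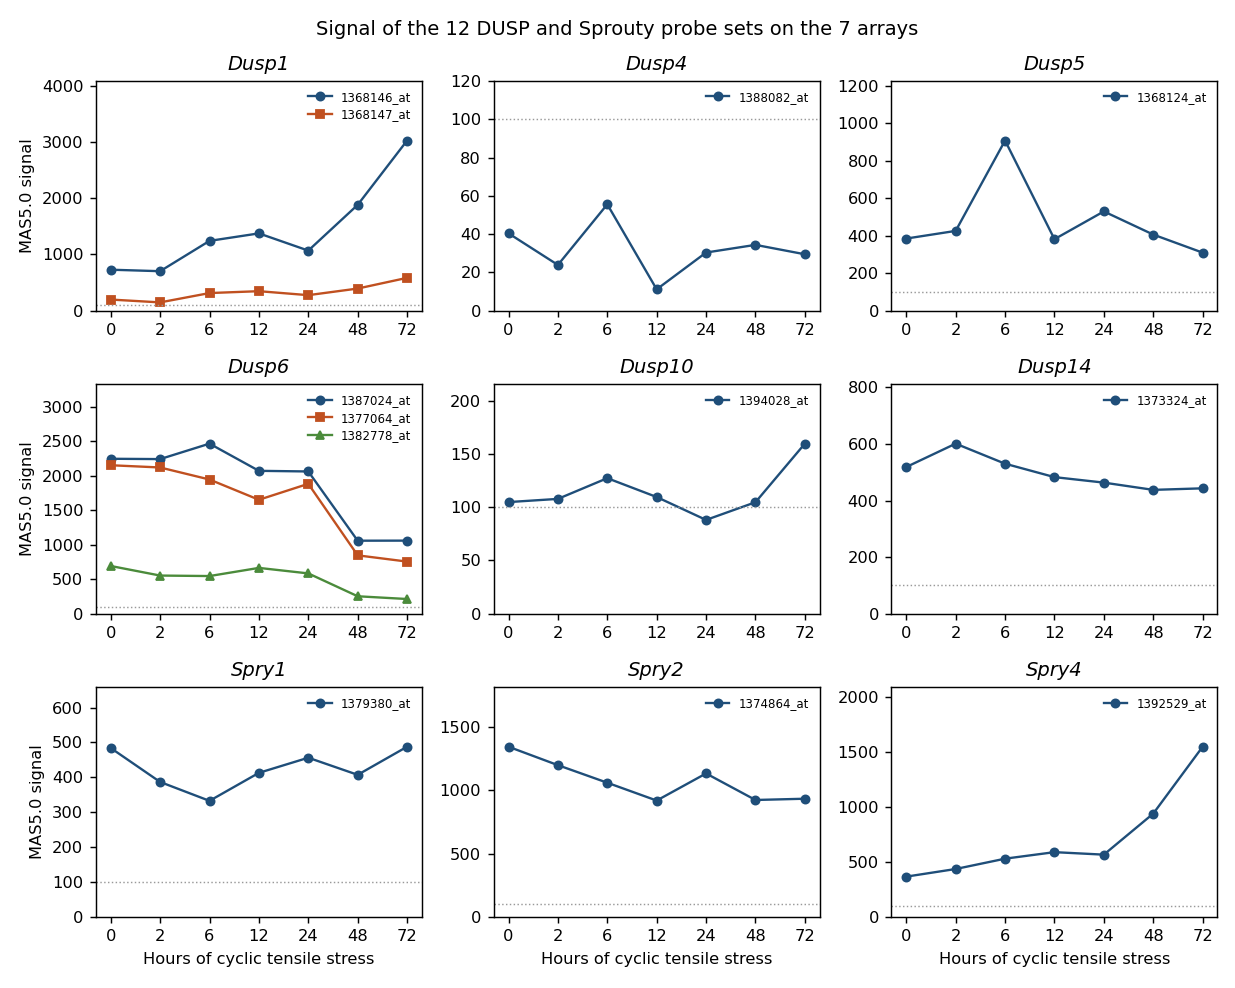
Signal (vertical axis, linear MAS5.0 units from 0) of each probe set against the hours for which the cells were stretched (evenly spaced along the horizontal axis), 1 panel a gene and 1 point an array, with a dotted line at 100. The curves of Dusp1 and Spry4 end at their highest point at 72 hours, that of Dusp5 has its highest point at 6 hours, and the 3 of Dusp6 are lower at 48 and 72 hours than at any earlier time.

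Dusp1, the stress-induced nuclear phosphatase, was read by a pair of probe sets. The first, 1368146_at, had a signal of 729 at 0 hours, 702 at 2, 1242 at 6, 1376 at 12, 1069 at 24, 1884 at 48 and 3029 at 72 hours. The second, 1368147_at, had 197 at 0 hours, 146 at 2, 313 at 6, 346 at 12, 275 at 24, 393 at 48 and 584 at 72 hours. Both were lowest at 2 hours, higher at 6 and 12 hours, lower again at 24 hours than at 12 hours, and highest at 72 hours. Relative to 0 hours the first probe set was at 1.70 at 6, 1.89 at 12, 2.59 at 48 and 4.16 at 72 hours, and the second at 1.59 at 6, 1.76 at 12 and 2.96 at 72 hours. The step from 48 to 72 hours alone was 1.61-fold and 1.49-fold. The second probe set lay just outside the threshold at 48 hours, with a ratio of 1.996 and a difference of 196. With the 2 hour array as baseline, an alternative added after the data were seen, its ratio at 72 hours was 3.99 in place of 2.96. On the arrays of 48 and 72 hours, where both probe sets were highest, the summed signal of the 10 neuronal markers was at 0.244 and 0.309 of its value at 0 hours, and that of 7 markers of microglia and macrophages was at 0.739 and 0.497, with 7 of 7 lower at 72 hours. The sum of 5 fibroblast and meningeal markers was at 0.778 and 0.935, and that of 6 astrocyte markers at 0.923 and 0.906. At 72 hours 2 of these 5 and 4 of these 6 genes were higher than at 0 hours. The part of these marker sets in the signals of Dusp1 and Spry4 was not tested.

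Spry4, which acts on the signal from receptor tyrosine kinases to ERK, was highest at 72 hours as well. Its probe set 1392529_at had a signal of 366 at 0 hours, 436 at 2, 530.0 at 6, 589 at 12, 567 at 24, 941 at 48 and 1551 at 72 hours. Every later array was above the 0 hour array, and all but the 24 hour array, which lay just below the 12 hour array, were above the one before. Its ratio to 0 hours was 1.19 at 2, 1.45 at 6, 1.61 at 12, 1.55 at 24, 2.57 at 48 and 4.23 at 72 hours, and the step from 48 to 72 hours was 1.65-fold. The other Sprouty genes had other courses. Spry1 had a signal of 484 at 0 hours, 387 at 2, 332 at 6, 413 at 12, 456 at 24, 407 at 48 and 488 at 72 hours, with its lowest value at 6 hours and nearly the same value at 72 as at 0 hours. Spry2, whose product also binds the ubiquitin ligase CBL, had 1346 at 0 hours, 1200.1 at 2, 1061 at 6, 919.8 at 12, 1134 at 24, 924 at 48 and 934 at 72 hours. It was highest at 0 hours and between 0.683 and 0.892 of that signal at the later times.

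Dusp6, the cytoplasmic phosphatase of ERK, was lower at 48 and 72 hours in each of its 3 probe sets. The first, 1387024_at, had a signal of 2244 at 0 hours, 2239.6 at 2, 2463 at 6, 2069.6 at 12, 2060.3 at 24, 1057 at 48 and 1059 at 72 hours. The second, 1377064_at, had 2151 at 0 hours, 2118 at 2, 1944 at 6, 1650.2 at 12, 1882 at 24, 845 at 48 and 755 at 72 hours, and the third, 1382778_at, had 691 at 0 hours, 552 at 2, 545 at 6, 663 at 12, 584 at 24, 252 at 48 and 213 at 72 hours. All 3 were above a ratio of 0.5 up to 24 hours and below it at 48 and 72 hours. The ratios at 72 hours were 0.472, 0.351 and 0.308, and the step from 24 to 48 hours alone gave 0.513, 0.449 and 0.433. The summed signal of 5 markers of dividing cells was also lowest on these arrays, at 0.286 of its 0 hour value at 48 hours and 0.201 at 72 hours, with 5 of 5 lower, and the 3′ over 5′ quotient of beta-actin was highest on them. The sums of the neuronal and the microglial markers were lower on them as well, as given beside Dusp1, and that of the skeletal muscle markers was at 0.482 at 48 hours and 0.200 at 72 hours. Their part in the signals of Dusp6 was not tested.

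Dusp5, a nuclear phosphatase of ERK and the gene with the pair of CArG boxes printed above, was high on 1 array. Its probe set 1368124_at had a signal of 384 at 0 hours, 425 at 2, 907 at 6, 381 at 12, 529 at 24, 406 at 48 and 309 at 72 hours. At 6 hours the ratio was 2.36, at 12 hours it was 0.991, and the 72 hour array was the lowest of the 7, at 0.805. Dusp1 and Spry4, at 1.70 and 1.45 at 6 hours, did not come down in the same way at 12 hours, where they were at 1.89 and 1.61. This peak rests on a single array, with no second array of that time to set it against. On that array the summed signal of the astrocyte markers was at its lowest, at 0.629 of its 0 hour value. That of the microglia and macrophage markers was at its highest, at 1.27. The part of these marker sets in the 6 hour signals of Dusp5 and Spry1 was not tested.

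The remaining phosphatases gave little. Dusp10, which acts on p38 and JNK, had a signal of 105 at 0 hours, 108 at 2, 127 at 6, 109.5 at 12, 88.0 at 24, 105 at 48 and 159.6 at 72 hours, close to 100 on most arrays, and a ratio of 1.52 at 72 hours. Dusp14 had 518 at 0 hours, 601 at 2, 530.1 at 6, 483 at 12, 463 at 24, 438 at 48 and 443 at 72 hours, with ratios between 0.844 and 1.16. Dusp4 was between 11.1 and 55.6 on all arrays, below 100 throughout, and its ratios, 0.275 at 12 hours among them, cannot be relied on. Probe sets of the same gene were read on the same RNA pools, so their disagreement holds no spread between cultures. Its source was not tested. The ratios of the Dusp1 probe sets differed by up to 1.4-fold at 1 time point and those of Dusp6 by up to 1.53-fold.

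**Figure D3:**
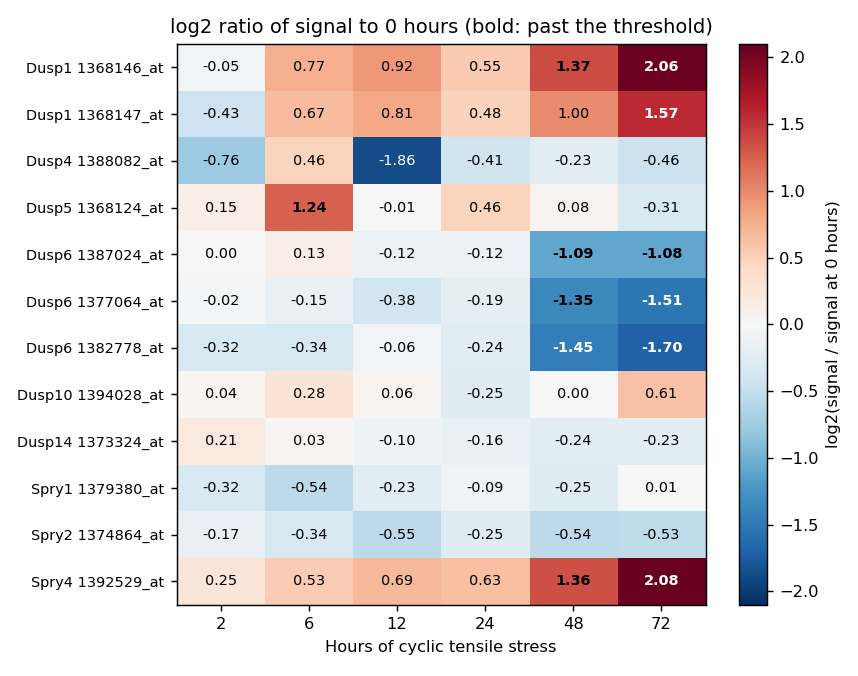
Log2 ratio of signal to the 0 hour array (colour and printed value) for the 12 probe sets (rows) at 6 times of cyclic tensile stress (columns), with values past the threshold in bold. At 72 hours the bold values are 2.06 and 1.57 for Dusp1, 2.08 for Spry4 and -1.08 to -1.70 for Dusp6.

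The other DUSP genes of the array were described by a list of 18, of which 15 were measured. At 72 hours none of the 15 was higher by the threshold and 1 lower, where 2.6% of all probe sets were higher and 3.54% lower, with a median ratio of 0.634 (0.997 over the 17709). Dusp26, a phosphatase found mainly in neural tissue, was that gene, with a signal of 249.6 at 72 hours against 576 at 0 hours. For genes outside the chosen 9, limma fitted a straight line against hours to the 7 arrays in 17709 probe sets, of which 15.0% rose and 14.1% fell at an adjusted p under 0.05. Of 13 genes of this list that were tested, 1 rose, 3 fell and 9 did not pass. Dusp18 rose (log2 change over 72 hours 0.71, standard error 0.20, adjusted p = 0.0245 from limma), but with the array of 48 or that of 72 hours left out no gene of the list did, and with that of 0 hours left out 2 did. Dusp22 and Dusp23, small phosphatases of the atypical group, and Styxl2, listed under its older name Dusp27, fell, and their 72 hour ratios were 0.577, 0.422 and 0.325, with adjusted p of 0.00227, 0.00206 and 0.00227 from limma. Styxl2 is a muscle gene, and the summed signal of 6 skeletal muscle markers had a 72 hour ratio of 0.200, with 6 of 6 lower. Its part in the signal of Styxl2 was not tested.

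A pair of further DUSP genes, chosen after their values were seen, stood out at early times. Dusp2, a nuclear phosphatase first known from activated lymphocytes, had a signal of 231 at 0 hours, 374 at 2, 709 at 6, 315 at 12, 221 at 24, 458 at 48 and 417 at 72 hours. Like that of Dusp5, its signal was highest at 6 hours, with a ratio of 3.07, and unlike it, its ratio was again 1.98 at 48 hours. The part of the marker sets in the signal of Dusp2 was not tested either. Dusp8, which acts on JNK and p38 and is found mainly in brain and heart, had 327 at 0 hours, 115 at 2, 114 at 6, 92.4 at 12, 156 at 24, 186 at 48 and 249 at 72 hours. Its ratio was 0.352 by 2 hours and lowest at 12 hours, with 0.282. The summed signal of the neuronal markers was at 0.610 at 2 hours, 0.319 at 12, 0.244 at 48 and 0.309 at 72 hours. For the skeletal muscle markers it was at 0.334, 0.314, 0.482 and 0.200 at the same times. Dusp8 itself was at 0.567 at 48 hours and 0.762 at 72 hours. The part of either marker set in the signals of Dusp8 and Dusp26 was not tested. Of the other Sprouty and Spred genes 2 of 4 were measured and none passed the threshold at 72 hours. Spred3, which like the Sproutys restrains the signal to ERK, had a ratio of 1.3 at 72 hours. It did not pass the trend test (adjusted p = 0.264 from limma). Spry3, at 66.8 at 72 hours against 143 at 0 hours, fell short of the mean signal that the test required.

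The kinases that these phosphatases act on, with the MAP2 kinases, RAF and RAS above them, gave a single value past the threshold at 72 hours. Of 23 listed genes 14 were measured and 13 tested for a trend. None was higher and 1 was lower by the threshold at 72 hours (2.6% of all higher, 3.54% lower), with a median ratio of 0.898. By the trend test none rose, 2 fell and 11 did not pass, where 15.0% of all probe sets tested rose and 14.1% fell. Mapk8, the JNK gene expressed in most tissues, fell, with a signal of 343 at 72 hours against 795 at 0 hours (log2 change over 72 hours -0.88, standard error 0.19, adjusted p = 0.00741 from limma). Map2k2, a kinase that activates ERK, fell to 0.664 of its 0 hour signal (adjusted p = 0.00763 from limma). Neither fell when the array of 72 hours was left out, and 4 genes of the list fell when that of 0 hours was. The p38 gene Mapk14 and the ERK kinase gene Map2k1, chosen after their values were seen, had 72 hour ratios of 1.19 and 0.874, and neither passed.

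Genes that ERK signaling is known to induce included some that rose and some that fell. Of 20 listed, 19 were measured. At 72 hours 4 were higher (2.6% of all) and 3 lower (3.54% of all) by the threshold, with a median ratio of 1.22. By the trend test 5 of 17 rose, 4 fell and 8 did not pass, where 15.0% of all probe sets rose and 14.1% fell. With the array of 72 hours left out, 3 rose. Fosl1, a subunit of AP-1, rose, with a signal of 854 at 72 hours against 132 at 0 hours. So did the receptor kinase gene Epha2, with 585 against 131 (log2 change over 72 hours 1.69, standard error 0.21, adjusted p = 0.000673 from limma), the early response gene Ier3, with 15856 against 4800.5, and the ETS factor genes Etv4 and Etv1, with 72 hour ratios of 2.63 and 1.77. Ccnd1, the cyclin of the G1 phase, fell, with 2319.7 at 72 hours against 6667 at 0 hours (log2 change over 72 hours -1.44, standard error 0.17, adjusted p = 0.000578 from limma). Egr2 and Ier2, early response genes, fell, with 72 hour ratios of 0.357 and 0.498, and so did Etv5, an ETS factor gene, with 0.541. Etv4 and Etv5, close relatives, thus passed the test in opposite directions, with log2 changes of 1.68 and -1.21 over 72 hours (standard errors 0.31 and 0.24). Fosl1 belongs to the genes that the study picked on these arrays, and its direction is no independent evidence.

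**Figure D4:**
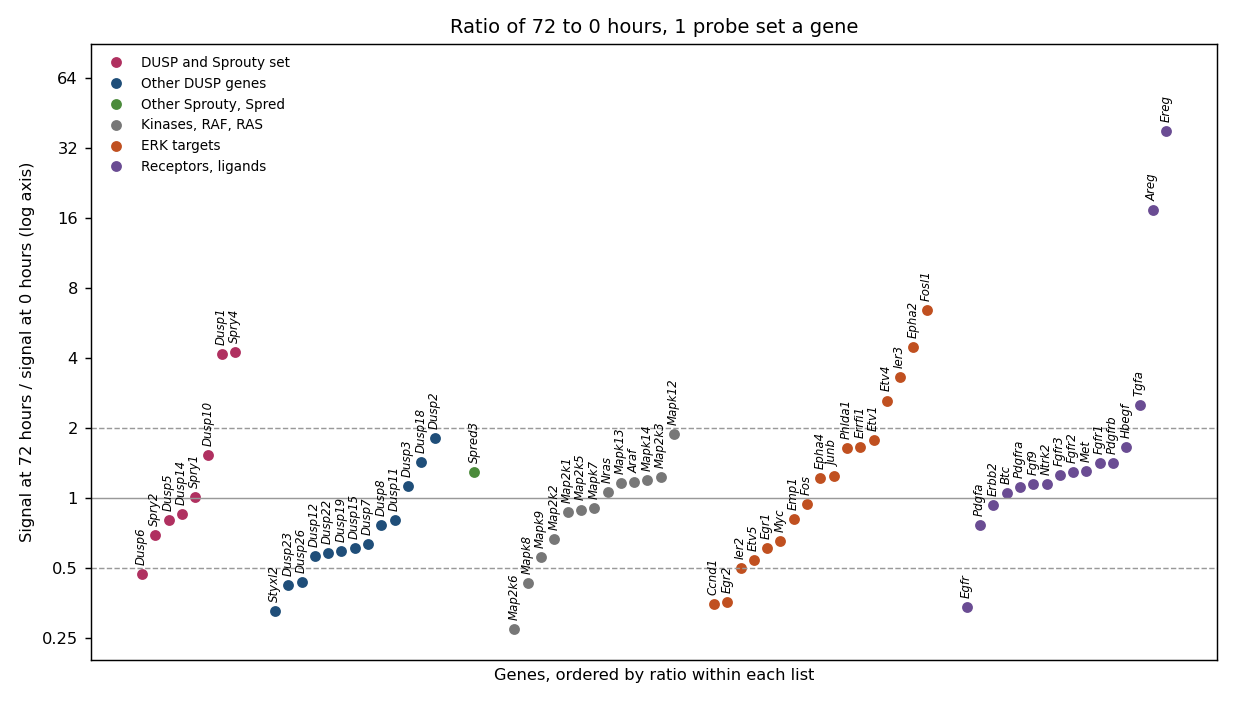
Ratio of the signal at 72 hours to that at 0 hours (vertical axis, log scale) for the DUSP and Sprouty genes and 5 lists of related genes, 1 point a gene by its probe set of highest mean signal, for genes whose signal averaged 100 or more. Dashed lines mark ratios of 2 and 0.5, and a point outside them can still miss the threshold, which also asks for a difference of 200. Dusp1 and Spry4 lie above the other DUSP genes, and Dusp6 is the lowest point of its set.

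The genes with the most similar time course were found for each of the 8 genes whose signal averaged 100 or more, by the root mean square difference in log2 change from 0 hours over the 6 later arrays, among 10307 genes. Nearest to Dusp1 were Arrdc3, with a difference of 0.11 on the log2 scale, and Nr1d1, a nuclear receptor of the circadian clock, with 0.18. Arrdc3, an arrestin family gene, had a signal of 270.2 at 0 hours, 254 at 2, 511 at 6, 517 at 12, 379 at 24, 730.4 at 48 and 1005 at 72 hours, with a dip at 24 hours as in Dusp1. Nearest to Spry4 were the transcription factor gene Twist2 (0.15) and Usp19 (0.15), with 72 hour ratios of 4.84 and 3.53. Twist2, like Dusp1, is among the genes that the study picked on these arrays. Nearest to Dusp6 were Tmem86a (0.09) and Nipsnap3b (0.10), at 0.459 and 0.494 at 72 hours. For Dusp5 the nearest genes, Ctdspl and Ubox5, were farther off (0.18 and 0.20), and Ctdspl had a signal of 297 at 6 hours against 137 at 0 hours. The courses of Dusp10, Dusp14, Spry1 and Spry2 had matches at differences of 0.04 to 0.08, which were Pde4a and Smad4 for Dusp10, Hnrnpl and Entr1 for Dusp14, Chd9 and Gabrg1 for Spry1, and Zmym4 and Mea1 for Spry2. These courses were flatter, with a highest signal 1.37 to 1.81 times the lowest. In the probe sets used for Dusp1, Dusp5, Dusp6 and Spry4 it was 2.33 to 4.32 times the lowest. A small difference between flat courses is therefore no sign of a closer relation. With a pseudocount of 16 the second nearest gene of Dusp1 was Usp19 in place of Nr1d1. The second nearest gene of Dusp14 was Sucla2 in place of Entr1 with that pseudocount and with arrays scaled to the same median, and that of Spry1 was Tomm34 in place of Gabrg1 with that scaling.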

How the data were processed

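Biotinylated cRNA was hybridised to Affymetrix rat expression arrays. The authors processed the 7 arrays in GCOS and deposited a MAS5.0 signal intensity for each of 31099 probe sets, with background subtraction and global scaling, which make low signals unreliable. After leaving out 57 controls, ratios to the 0 hour array were computed on the deposited values. The platform annotation gave 1 symbol to 20826 probe sets, several to 436 and none to 9780. Where a listed gene had several probe sets, that of highest mean signal stood for it. The trend was fitted with limma 3.58.1 in R 4.3.3, by lmFit and then eBayes with its trend option. The fit used log2(signal + 32) of probe sets averaging 100 or more, with Benjamini-Hochberg adjustment over all probe sets tested. The spread is that around the line, not between cultures. The fit was also run on simulated data with noise independent between probe sets. Such noise holds no deviation shared by a whole array, so that run cannot show how such a deviation affects the p-values. Ratios, lists and promoter matches came from Python 3.11.15 and pandas 2.3.3. The genes and lists were chosen with earlier results of these data known. Genes named were, for each list, at most 4 with the largest 72 hour ratio among those past the threshold, those of counts of 5 or fewer, and the 2 nearest genes by time course. Alternatives were other thresholds, scalings, baselines, pseudocounts, filters, forms of time and each array left out.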

Additional observations from a re-analysis of the deposited data

How the results depend on the processing

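With 1 array a time point no error of a single ratio can be given, and depth is set by signal over the floor, which leaves the ratios of Dusp4 without a basis. With a minimum ratio of 1.5, 2 of the 12 probe sets in place of 1 were higher at 6 hours, 2 in place of none at 12 hours and 1 in place of none at 24 hours. With each array scaled to the same median 1 in place of none was higher at 12 hours, and without a minimum difference 1 in place of none was lower at 12 hours. The other counts of these probe sets stayed within 1.5 times under the alternatives run. The 72 hour ratios moved by 1.05-fold with scaling to the same median, by up to 1.09-fold with quantile normalization, and by up to 1.69-fold, in Dusp4, with the 2 hour array as baseline, an alternative chosen after seeing the data. Scaling to the same median put the highest signal of a pair of Dusp6 probe sets at 2 and 12 hours in place of 0 hours. With log2(hours + 1) as time none of the other DUSP genes rose in place of 1, and 2 ERK targets fell in place of 4. With each array left out in turn 0 to 2 other DUSP genes rose, 0 to 4 kinases fell and 3 to 5 ERK targets rose. With the mean of 0 and 2 hours as baseline neither Dusp26 nor Mapk8 was past the threshold at 72 hours. The causes were not tested. No paired analysis was possible because each time point has 1 array.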

Other observations

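Receptors and ligands that act upstream of the Sproutys were described in the same way, with a list of 19 genes, all of them measured. At 72 hours 2 were higher (2.6% of all probe sets) and 1 lower (3.54% of all) by the threshold, with a median ratio of 1.31. Pdgfrb, Fgfr2 and Ntrk2, which the study lists as upregulated, had ratios of 1.42, 1.29 and 1.15 by the probe set of highest mean signal. Each has further probe sets, which were not counted here, so these ratios are no check of the study's listing. For Pdgfrb the study printed a higher array ratio at 72 hours. Its RT-PCR also found the mRNAs of these genes significantly raised. Ereg, an EGF receptor ligand, had a signal of 1092 at 72 hours against 28.9 at 0 hours and rose by the trend test (adjusted p = 0.000351 from limma). Its 0 hour signal is below 100, which limits the ratio, and it was picked by the study on these arrays. Areg, a ligand of the same receptor, had a signal of 1013 at 6 hours, the array on which Dusp5 and Dusp2 were highest, 322 at 12 hours and 1035 at 72 hours, against 59.8 at 0 hours, which is also below 100, so no fold is given. Areg did not pass the linear trend test (adjusted p = 0.0746 from limma). The receptor gene Egfr was lower, with 114 at 72 hours against 336 at 0 hours, and fell (adjusted p = 0.0144 from limma). By the trend test 3 of 16 genes rose and 2 fell, where 15.0% of all probe sets tested rose and 14.1% fell. Besides Ereg, Fgfr1 and Tgfa rose, with 72 hour ratios of 1.41 and 2.51 (adjusted p = 0.00665 and 0.0175 from limma). Besides Egfr, Pdgfa fell, with a ratio of 0.762 (adjusted p = 0.0241 from limma).  With single arrays left out, 6 rose (0 hours left out), 5 (6 hours) or 1 (72 hours), and 1 fell (2 or 72 hours left out) or none (48 hours). With no filter on dim probe sets 5 rose, and with log2(hours + 1) as time 1 fell.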
